A study of Mus musculus with 2 samples.

Results

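BMP and TGF-beta signalling in tumour endothelial cells (ECs) was examined through 9 genes, which were chosen by name out of the 17139 genes in the expression matrices. They were the ligand gene Bmp2, the co-receptor gene Eng, the type I receptor gene Acvrl1, the type II receptor genes Bmpr2 and Tgfbr2, the inhibitory SMAD genes Smad6 and Smad7, and the target genes Id1 and Id3. All 9 genes were detected in both libraries, the least abundant being Smad6 with 668 and 562 unique molecular identifiers (UMIs), each of which stands for 1 captured RNA molecule. The study compared ECs of implanted LLC tumours, which grow from a Lewis lung carcinoma cell line placed under the skin of adult male C57BL/6 mice, of the J substrain per the methods. One tumour was injected with cGAMP, a cyclic dinucleotide that activates the innate immune sensor STING, and the other with PBS as the vehicle, and the methods and a supplementary legend give different sampling times. Live CD45-/CD31+ ECs were sorted and sequenced with a droplet-based 3' kit, whose version differs between the methods and the labels. Each condition was 1 mouse and 1 library, so that treatment, mouse and library cannot be told apart, no difference was tested, and every interval below covers counting error only.

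BMPs and TGF-betas are secreted ligands that bring type I and type II receptor kinases together on the cell surface. The activated type I receptor phosphorylates signalling SMAD proteins, which join SMAD4 and enter the nucleus to change transcription. In ECs the receptor ALK1, which Acvrl1 encodes, acts with BMPR2 and the co-receptor endoglin, the product of Eng, in the response to circulating BMP ligands, with Id1 and Id3 among the best known target genes and SMAD6 and SMAD7 as feedback inhibitors. Loss of function of human ENG or ACVRL1 causes hereditary haemorrhagic telangiectasia, a disease of malformed vessels.

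The promoter sequences of 4 members are shown because these genes differ in how they lay between the libraries and the EC clusters, Tgfbr2 and Bmpr2 with lower levels in the cGAMP library, Id3 with higher levels, and Smad6 with the widest range over clusters of these 4 genes in the PBS library. Each runs 5' to 3' on the strand of the gene from 250 bases before to 50 bases after the start in RefSeq on GRCm38.p6, a table that held 5 of the 9 genes. Capitals mark 3 motifs searched on both strands, CAGAC, a site of TGF-beta SMADs that reads GTCTG on the other strand, GTCTAGAC, the palindrome of that site, and GGCGCC, a GC-rich site of BMP SMADs. The regions are chr9:116175314-116175613 for Tgfbr2 on the minus strand, chr1:59764029-59764328 for Bmpr2 on the plus strand, chr4:136143572-136143871 for Id3 on the plus strand and chr9:64022010-64022309 for Smad6 on the minus strand. In GENCODE vM21 the gene starts earlier for Bmpr2, at 59763400, and for Id3, at 136143497. Both of these windows thus lie inside the gene of that annotation.
Tgfbr2: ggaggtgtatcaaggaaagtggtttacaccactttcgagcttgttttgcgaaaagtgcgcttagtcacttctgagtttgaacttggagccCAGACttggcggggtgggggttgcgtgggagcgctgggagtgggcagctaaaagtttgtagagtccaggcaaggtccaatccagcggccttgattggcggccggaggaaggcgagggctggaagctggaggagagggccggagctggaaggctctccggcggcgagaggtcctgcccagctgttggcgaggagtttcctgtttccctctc
Bmpr2: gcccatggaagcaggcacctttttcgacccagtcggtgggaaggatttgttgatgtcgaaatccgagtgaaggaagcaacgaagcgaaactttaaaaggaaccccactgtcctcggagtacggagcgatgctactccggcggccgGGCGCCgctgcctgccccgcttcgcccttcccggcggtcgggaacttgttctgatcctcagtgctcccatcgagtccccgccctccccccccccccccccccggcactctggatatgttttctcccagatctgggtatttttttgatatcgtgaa
Id3: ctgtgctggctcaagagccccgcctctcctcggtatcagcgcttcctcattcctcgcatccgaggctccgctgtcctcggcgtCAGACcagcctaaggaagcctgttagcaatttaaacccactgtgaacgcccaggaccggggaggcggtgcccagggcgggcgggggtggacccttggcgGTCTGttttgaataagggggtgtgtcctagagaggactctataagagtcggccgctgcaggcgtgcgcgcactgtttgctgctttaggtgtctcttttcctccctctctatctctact
Smad6: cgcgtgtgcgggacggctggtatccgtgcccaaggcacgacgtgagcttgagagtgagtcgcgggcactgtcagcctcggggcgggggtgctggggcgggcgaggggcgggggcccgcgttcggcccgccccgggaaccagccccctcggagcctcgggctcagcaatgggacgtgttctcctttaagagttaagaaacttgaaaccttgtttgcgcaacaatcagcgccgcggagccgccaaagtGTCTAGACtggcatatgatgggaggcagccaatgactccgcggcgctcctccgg
The Smad6 window held GTCTAGAC once, at position -4 counted from the start, a motif found in 0.213% of 32851 promoters of the same length. Bmpr2 had 1 GGCGCC at -105, which 11.9% of promoters held. CAGAC stood at -160 in Tgfbr2 and at -167 and -68 in Id3, and 49.6% of all promoters had it, so that it is common in windows of this length. A match describes the letters of the window and was not tested as a binding site.

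The PBS library held 2517 ECs with 92081146 UMIs in total and a median of 29780 UMIs per cell, and the cGAMP library held 1340 ECs with 63366746 UMIs and a median of 41178 per cell. The libraries shared 1 barcode string. All 6 listed endothelial markers were present in both, with 2674 and 2334 summed UMIs per 1000000 UMIs of the library. Transcripts of other cells were low but not equal: the 6 macrophage or monocyte genes summed to 14.2 UMIs per 1000000 in the PBS library against 26.9 in the cGAMP library, with single genes at 0.152 to 7.45 and at 0.331 to 12.6. The 4 neutrophil genes summed to 0.847 and 17.1 UMIs per 1000000, with single genes at 0.043 to 0.337 and at 0.158 to 9.96. The 6 pericyte or smooth muscle genes summed to 42.1 and 33.1, and the 6 fibroblast genes to 3.90 and 2.29, with Pdgfra at 0 in the cGAMP library. For T or NK cells, 3 of 5 listed genes were present and summed to 0.272 and 0.174, with Cd3d at 0 in the cGAMP library, and 3 of 4 epithelial genes summed to 2.09 and 0.395, with Epcam at 0 there. Values without the cells that carry such markers stand beside the results that they moved past the threshold.

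These levels are summed over the ECs of a library and scaled to 1000000 UMIs of that library (CPM), with an exact Poisson interval of 95%. With 1 library per condition a gene was called higher or lower at 1.5-fold or more, without a test. Id1 alone among the members was called higher in the cGAMP library, against 4.53% of the 9509 genes that reached 5 CPM in one library or both. Tgfbr2 alone was called lower, against 7.40% of those genes. The other 7 members stayed under 1.5-fold, and the median log2 ratio of the 9 was -0.06, next to -0.08 over all genes tested.

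**Figure D1:**
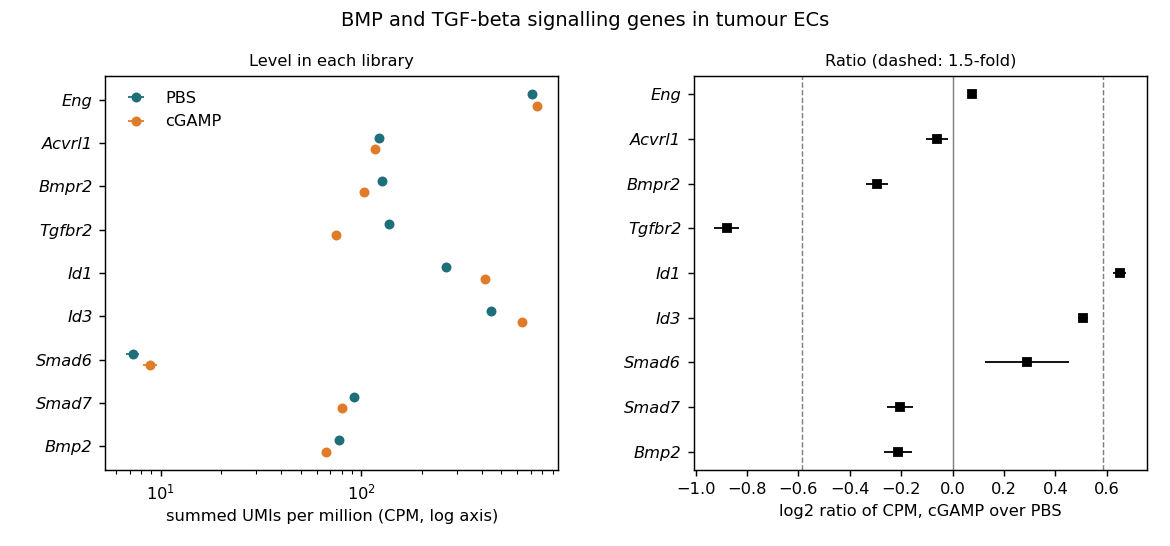
Left, level of each of the 9 genes in the PBS and cGAMP libraries as CPM on a log axis with exact Poisson intervals. Right, log2 ratio of cGAMP over PBS with exact conditional binomial intervals, dashed lines marking 1.5-fold. Tgfbr2 lies left of the lower line at -0.88 and Id1 right of the upper line at 0.65, and the other genes lie between the lines.

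ECs were grouped into 8 clusters with the 9 members, and the other listed pathway genes, left out of the genes used to cluster, and the clusters are called here by their leading genes. A class name was given where at least 3 markers of a class were raised 2-fold or more against the other clusters and the class led among the 10 leading genes. The Gal/Chga cluster, with 679 PBS-treated and 289 cGAMP-treated ECs, and the Bnip3/Ankrd1 cluster, with 49 and 24, were tip-like, as ECs at the front of sprouts. The Gja5/Gja4 cluster, with 624 and 262 ECs, and the Slc6a6/Lpl cluster, with 64 and 53, were arterial, the latter also raising 5 of 8 capillary markers. The Ackr1/Selp cluster, with 354 and 332 ECs, was stalk-like, and the Ube2c/Cenpf cluster, with 489 and 184, was proliferative. The Ung/Hells cluster, with 215 and 146 ECs, and the Igfbp5/Ctsh cluster, with 43 and 50, were left unnamed, although the latter raised all 10 stalk-like markers. The Ung/Hells cluster had Mcm5, a listed proliferative marker, among its leading genes but raised 1 of 11 such markers. Its cells therefore count among the other ECs where proliferative ECs are compared. The pericyte or smooth muscle genes summed to 366 CPM in the Bnip3/Ankrd1 cluster of the cGAMP library, against 52.4 CPM in that cluster of the PBS library, and their part in its values was not tested. All cells of a condition came from 1 mouse, so that clusters are not replicates of a condition.

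**Figure D2:**
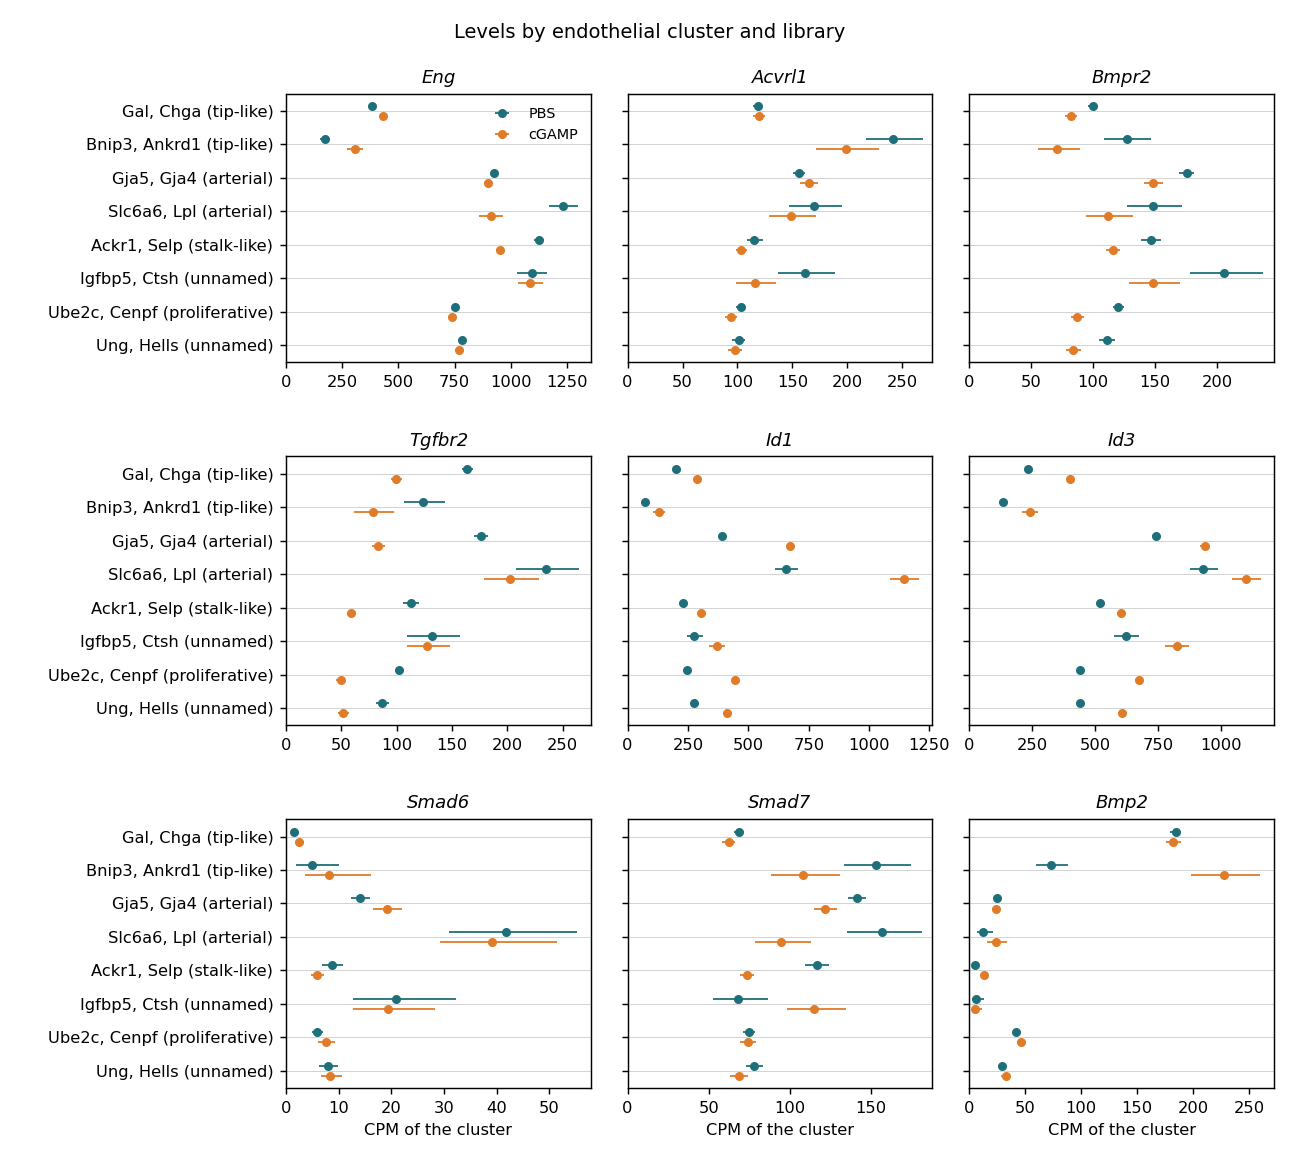
Level of each of the 9 genes in the 8 EC clusters, as CPM of the cluster on a linear axis from 0, with a point for each library and exact Poisson intervals. Bmp2 peaks in the tip-like clusters, where Eng, Id1 and Id3 are lowest, and Smad6, Id1 and Id3 peak in the Slc6a6/Lpl arterial cluster.

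Bmp2 (ENSMUSG00000027358, chr2:133552159-133562885, plus strand, coordinates of this and the other genes from GENCODE vM21 on GRCm38), which encodes a BMP ligand, was the member most unevenly spread over ECs. Its level was 77.6 CPM (75.8 to 79.4) in the PBS library against 67.0 CPM (65.0 to 69.0) in the cGAMP library, a log2 ratio of -0.21 (-0.27 to -0.16). In tip-like ECs it reached 179 CPM in the PBS library against 185 CPM in the cGAMP library, which was 6.28-fold and 6.85-fold over all other ECs of the same library. Bmp2 was the only member at least 1.5-fold higher in tip-like ECs in both libraries, against 4.23% of genes. Stalk-like ECs held 5.51 CPM (4.06 to 7.30) in the PBS library against 13.1 CPM (11.3 to 15.1) in the cGAMP library, 15.5-fold and 6.30-fold below the other ECs. Bmp2 was also the only member at least 1.5-fold lower in both libraries in stalk-like ECs, against 8.21% of genes, in proliferative ECs, against 3.37%, and in arterial ECs, against 6.75%. In arterial ECs its level was 24.1 and 23.7 CPM, and in proliferative ECs 41.6 and 46.2 CPM. The clusters thus spanned 33.5-fold in the PBS library, where the Gal/Chga cluster was highest with 184 CPM, and 39.6-fold in the cGAMP library, where the Bnip3/Ankrd1 cluster was highest with 227 CPM. In the other library the Bnip3/Ankrd1 cluster held 73.3 CPM, from 105 UMIs against 221. These UMIs came from 49 PBS-treated and 24 cGAMP-treated ECs, and how they were spread over these cells was not examined.

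Although the level over all ECs was lower in the cGAMP library, Bmp2 was lower in 3 of 8 clusters, and in none of them did the interval lie below 0. Scaled by the median of ratios, it was lower in 1 of 8. The log2 ratio of cGAMP over PBS was 0.05 (-0.02 to 0.11) in tip-like, -0.02 (-0.24 to 0.20) in arterial, 0.15 (-0.0049 to 0.31) in proliferative and 1.25 (0.79 to 1.74) in stalk-like ECs. Tip-like ECs were 728 of 2517 PBS-treated ECs but 313 of 1340 cGAMP-treated ECs. With the proportions of the clusters held at the average of both libraries, the Bmp2 level was 63.1 CPM for PBS and 68.1 CPM for cGAMP, a log2 ratio of 0.11, so that the sign over all ECs turned. In single cells thinned to 5000 UMIs, which 2447 PBS-treated and 1327 cGAMP-treated ECs reached, Bmp2 was found in 16.3% (14.9 to 17.8) and 14.2% (12.4 to 16.2) of cells. Tip-like ECs had a Bmp2 UMI in 38.9% of cells in either library, and stalk-like ECs in 1.46% (0.475 to 3.37) and 3.94% (2.11 to 6.64). The stalk-like shares lie near those of Lyz2, a macrophage transcript, found in 1.80% and 5.65% of all thinned cells. Whether they stand for expression or for stray RNA was not tested. Single ECs held up to 91 Bmp2 UMIs in the PBS library against 124 in the cGAMP library, and the 5% of cells with the most carried 53.3% and 59.0% of its UMIs.

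Eng (ENSMUSG00000026814, chr2:32646595-32682669, plus strand) encodes endoglin, a transmembrane co-receptor that is abundant on activated endothelium. Its level was 711 CPM (705 to 716) in the PBS library against 749 CPM (742 to 756) in the cGAMP library, a log2 ratio of 0.08 (0.06 to 0.09). The levels of the 2 libraries were thus close, while the EC classes differed within each library. Tip-like ECs held 372 and 426 CPM, which was 2.35-fold and 2.02-fold below the other ECs of the same library. Among the other classes, Eng was at 1127 and 950.2 CPM in stalk-like, 943 and 899 CPM in arterial, and 754 and 738 CPM in proliferative ECs. The highest cluster was Slc6a6/Lpl with 1234 CPM in the PBS library and Igfbp5/Ctsh with 1087 CPM in the cGAMP library, and the Bnip3/Ankrd1 cluster was lowest in both with 174 and 307 CPM. Of the 7 pairs of neighbours in this order, 1 pair overlapped in its intervals in the PBS library against 3 in the cGAMP library. Between the libraries Eng was higher in both tip-like clusters of the cGAMP library and lower in the other 6 clusters, with the intervals of 3 of those below 0. This order depends on the scaling, since with median-of-ratios scaling, which adds 0.07 to every log2 ratio, Eng was higher in 6 of 8 clusters. Clustered without integration, where the tip-like class was a smaller set of 603 and 186 ECs, the log2 ratio of Eng in that class was -0.09.

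Acvrl1 (ENSMUSG00000000530, chr15:101128522-101145336, plus strand) encodes ALK1, the type I receptor of the endothelial BMP pathway, and its log2 ratio was the nearest to 0 of the 9 members in the summed libraries. Its level was 123 CPM (120.3 to 125) in the PBS library against 117 CPM (115 to 120.1) in the cGAMP library, a log2 ratio of -0.06 (-0.10 to -0.02). It ranged over clusters from 101 to 242 CPM in the PBS library, and from 93.9 to 199 CPM in the cGAMP library, highest in the Bnip3/Ankrd1 cluster in both. Arterial ECs held 157 and 163 CPM, 1.38-fold and 1.52-fold over the other ECs, which passed 1.5-fold in the cGAMP library alone in this clustering. In 6 of 8 clusters the level was lower in the cGAMP library, with log2 ratios from -0.48 to 0.08, and with median-of-ratios scaling in 5 of 8.

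Bmpr2 (ENSMUSG00000067336, chr1:59763400-59879014, plus strand) encodes the type II receptor of BMPs. Its level was 127 CPM (125 to 130) in the PBS library against 104 CPM (101 to 106) in the cGAMP library, a log2 ratio of -0.29 (-0.34 to -0.25). Arterial ECs were highest among the classes with 174 and 145 CPM, 1.51-fold and 1.53-fold over the other ECs, and tip-like ECs were lowest with 101 and 81.5 CPM. All 8 clusters had a lower level in the cGAMP library, which 15% of the genes tested did, and all 8 intervals lay below 0, with log2 ratios from -0.84 in the Bnip3/Ankrd1 cluster to -0.24 in the Gja5/Gja4 cluster.

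Tgfbr2 (ENSMUSG00000032440, chr9:116084293-116175360, minus strand) encodes the type II receptor of TGF-beta, and its level was 137 CPM (135 to 140) in the PBS library against 74.7 CPM (72.5 to 76.8) in the cGAMP library. The cGAMP library was 1.84-fold lower, a log2 ratio of -0.88 (-0.93 to -0.83). This was the only member called lower, and the log2 ratio stayed between -0.88 and -0.78 under the 6 alternatives tried, which include cells without markers of other cell types, thinned cells and equal cluster proportions. Within classes the level went from 180 to 96.8 CPM in arterial, from 162 to 98.5 CPM in tip-like, from 113 to 58.9 CPM in stalk-like and from 102 to 49.4 CPM in proliferative ECs. The corresponding log2 ratios were -0.89, -0.72, -0.94 and -1.05, each with an interval below 0. Clustered without integration of the libraries, the log2 ratios were -0.46, -0.49, -0.35 and -0.86 in the same order, of which the proliferative one alone passed 1.5-fold. Those classes were other sets of PBS-treated and cGAMP-treated ECs. They held 340 and 139 arterial, 603 and 186 tip-like, 246 and 154 stalk-like and 670 and 288 proliferative ECs. The 2 clusters with the smallest differences were Slc6a6/Lpl, at 235 and 203 CPM, and Igfbp5/Ctsh, at 132 and 128 CPM, whose intervals included a log2 ratio of 0. A Tgfbr2 UMI was found in 45.9% (43.9 to 47.9) of thinned PBS-treated ECs and in 28.9% (26.4 to 31.4) of thinned cGAMP-treated ECs. Before thinning the shares were 89.8% and 85.3%, at medians of 29780 and 41178 UMIs per cell. Tgfbr2 and Bmpr2 were the 2 members lower in all 8 clusters of the cGAMP library. With median-of-ratios scaling Bmpr2 was still lower in 8, and Tgfbr2 in 7, with Igfbp5/Ctsh at a log2 ratio of 0.026.

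**Figure D3:**
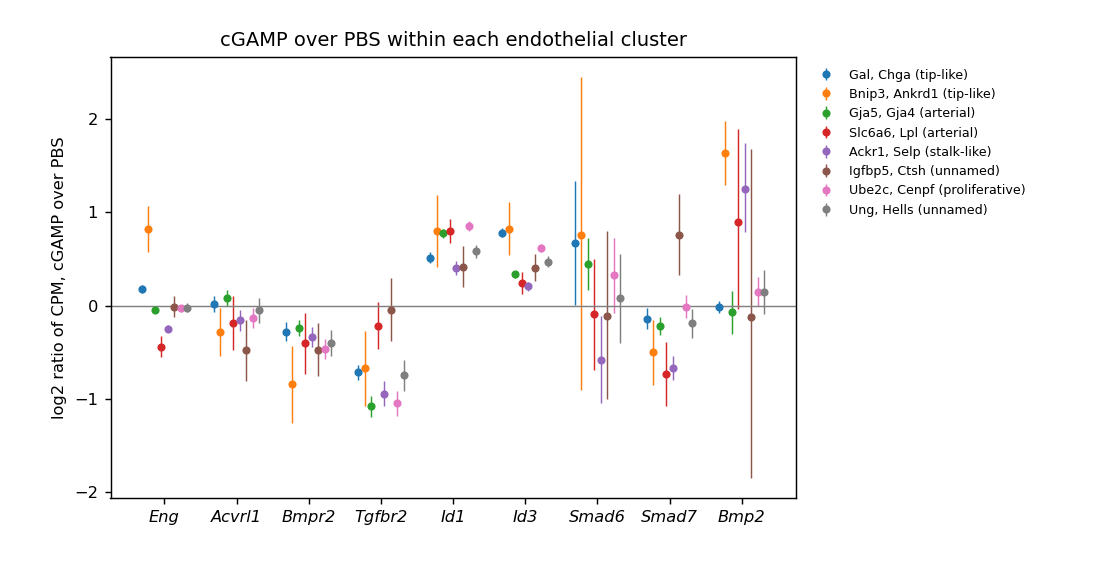
Log2 ratio of CPM, cGAMP over PBS, of each of the 9 genes within each of the 8 EC clusters, with exact conditional binomial intervals. Bmpr2 and Tgfbr2 lie below 0 in all 8 clusters (Tgfbr2 in 7 with median-of-ratios scaling) and Id1 and Id3 above 0 in all 8. Eng, Acvrl1, Smad6, Smad7 and Bmp2 have clusters on both sides.

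Smad6 (ENSMUSG00000036867, chr9:63953076-64022059, minus strand), an inhibitory SMAD that acts mainly on BMP receptors, had a level of 7.25 CPM (6.71 to 7.83) in the PBS library against 8.87 CPM (8.15 to 9.63) in the cGAMP library. The log2 ratio was 0.29 (0.13 to 0.45). The classes differed more than the libraries: arterial ECs held 15.8 and 21.4 CPM, 3.14-fold and 3.54-fold over the other ECs, and tip-like ECs held 1.70 and 2.81 CPM, 5.84-fold and 3.88-fold below them. The Slc6a6/Lpl arterial cluster was highest in both libraries with 41.8 CPM (30.9 to 55.2) from 49 UMIs for PBS and 39.2 CPM (29.2 to 51.5) from 51 UMIs. The Gal/Chga tip-like cluster was lowest with 1.54 and 2.46 CPM, from 44 and 37 UMIs. Between the libraries Smad6 was higher in 5 and lower in 3 of 8 clusters, with log2 ratios of 0.73 (0.11 to 1.33) in tip-like and -0.58 (-1.04 to -0.11) in stalk-like ECs, which were 0.01 and 0.02 when the cells were clustered without integration. In thinned cells a Smad6 UMI was found in 8.06% (6.09 to 10.4) and 10.4% (7.19 to 14.3) of arterial ECs. In tip-like ECs the shares were 0.970% (0.391 to 1.99) and 0.643% (0.0780 to 2.30), at or below those of Lyz2. They were near those of Col1a1, a fibroblast transcript found in 0.531% and 0.452% of all thinned cells. Proliferative ECs, at 1.92% and 3.31%, were likewise near or below Lyz2. Whether such shares stand for expression or for stray RNA was not tested.

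Smad7 (ENSMUSG00000025880) encodes the inhibitory SMAD that acts on receptors of both TGF-beta and BMPs. Its level was 92.2 CPM (90.3 to 94.2) in the PBS library against 79.9 CPM (77.7 to 82.1) in the cGAMP library, a log2 ratio of -0.21 (-0.26 to -0.16). Arterial ECs held 142 and 119 CPM, 1.80-fold and 1.66-fold over the other ECs. Stalk-like ECs held 116 CPM in the PBS library against 73.4 CPM in the cGAMP library, a log2 ratio of -0.67 (-0.79 to -0.54), and proliferative ECs held 74.6 and 74.1 CPM. Clustered without integration, the log2 ratio was -0.17 in stalk-like and -0.06 in proliferative ECs. The level was lower in 7 of 8 clusters of the cGAMP library, and in 6 with median-of-ratios scaling, the highest log2 ratio being the Igfbp5/Ctsh cluster with 68.0 CPM from 65 UMIs and 115 CPM from 160 UMIs.

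Id1 (ENSMUSG00000042745, chr2:152736251-152737410, plus strand) encodes an inhibitor of basic helix-loop-helix transcription factors that SMAD1 and SMAD5 induce. Its level was 265 CPM (262 to 268) in the PBS library against 415 CPM (410.4 to 420.4) in the cGAMP library. The cGAMP library was 1.57-fold higher, a log2 ratio of 0.65 (0.62 to 0.67). The call is near its threshold, a log2 ratio of 0.58, and was lost under 3 of the 6 alternatives: the ratio was just below the threshold with the mean of per-cell CPM, at 291 and 436 CPM, and the log2 ratio was 0.57 in cells without markers of other cell types and 0.56 in thinned cells, while it stayed above 0 under all 6. The level went from 408 to 724 CPM in arterial, from 247 to 445 CPM in proliferative, from 194 to 276 CPM in tip-like and from 231 to 304 CPM in stalk-like ECs, so that it was higher in the cGAMP library in each class. The Slc6a6/Lpl cluster was highest in both libraries with 658 and 1145 CPM and the Bnip3/Ankrd1 cluster lowest with 74.0 and 129 CPM. Clustered without integration, the log2 ratio in tip-like ECs was 0.07, with 191 and 201 CPM. Thinned cells had an Id1 UMI in 58.8% (56.8 to 60.7) of PBS-treated and 67.5% (64.9 to 70.0) of cGAMP-treated ECs, and unthinned cells in 88.8% and 94.3%.

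Id3 (ENSMUSG00000007872, chr4:136143497-136145755, plus strand) encodes a protein of the same family as Id1. Its level was 444 CPM (440 to 449) in the PBS library against 631 CPM (625 to 637) in the cGAMP library, a log2 ratio of 0.51 (0.49 to 0.53), just under the threshold. The level went from 229 to 391 CPM in tip-like, from 439 to 674 CPM in proliferative, from 751 to 952 CPM in arterial and from 520.1 to 600.0 CPM in stalk-like ECs. The log2 ratio was 0.77, 0.62, 0.34 and 0.21 in these classes, and 0.36, 0.53, 0.26 and 0.30 without integration, so that the order of the classes depends on the clustering. Whether the ratios of the classes differ was not tested. Id1 and Id3 were the 2 members higher in all 8 clusters of the cGAMP library, each with 8 intervals above 0 and with the same count under median-of-ratios scaling, and 12.3% of the genes tested were higher in all 8.

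Set side by side, the EC classes held different members. Arterial ECs had Bmpr2, Id1, Id3, Smad6 and Smad7 at least 1.5-fold over the other ECs in both libraries, 5 of 9 members against 2.59% of genes. The count was 7 at a resolution of 0.8 and without integration, where Acvrl1 and Tgfbr2 joined, and 6 with members among the variable genes, where Tgfbr2 joined. Those arterial classes were smaller sets of ECs, and the share over all genes was not computed for them. In the main clustering the excess of Id1 was 1.79-fold and 2.09-fold, and that of Id3 2.06-fold and 1.70-fold. Tip-like ECs had Eng, Id1, Id3 and Smad6 at least 1.5-fold lower in both libraries, 4 of 9 members against 8.54% of genes. There Id1 was 1.54-fold and 1.67-fold lower, a call that was lost at a resolution of 0.8, and Id3 2.40-fold and 1.82-fold lower. No member was 1.5-fold higher in both libraries in stalk-like or proliferative ECs. The share of all genes higher there was not computed, so nothing about the members is read from this. The classes are groups of cells of the same 2 libraries, and these counts describe them without a test. As a median over the 9 members, the log2 span from the lowest to the highest cluster, with 5 CPM added, was 2.73 in the PBS library against 1.93 in the cGAMP library, next to 0.93 and 0.83 over all genes tested. The added 5 CPM narrows the span of weak genes, and the genes tested reach down to 5 CPM. The medians are thus not matched for level, and no comparison among genes of like level was made.

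Over the 16 points made by 8 clusters in 2 libraries, centred within each library, the log2 levels of Eng and Id3 had a Pearson r of 0.94 and those of Id1 and Id3 of 0.92. Bmp2 ran against Eng with an r of -0.84, against Bmpr2 with -0.80 and against Id3 with -0.76. Points of a library share its depth and its mouse, and clusters differ in size, so these values are descriptions. Across thinned single cells of all clusters together, these 5 pairs had the same sign in both libraries. Bmpr2 and Bmp2 were near 0 there, with a Spearman's rho of -0.09 and -0.05. The cells are those that make up the 16 points, so this is not a separate check, and pairs within a cluster were not examined. Spearman's rho between Eng and Bmp2 was -0.32 across 2447 PBS-treated ECs and -0.28 across 1327 cGAMP-treated ECs, and between Id1 and Id3 it was 0.30 and 0.36. It was 0.33 and 0.25 between Eng and Id3, and -0.21 and -0.18 between Id3 and Bmp2. Of the thinned cells with an Id1 UMI, 77.4% (PBS) and 91.0% (cGAMP) also had one of Id3, against 63.7% and 74.9% of those without Id1.

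The genes whose levels ran most like those of a member over the 16 points were taken from 6045 genes that reached 20 CPM in one library or both. They are genes high and low in the same clusters as the member, and nothing is read from this on shared control. For Bmp2 they were Arhgef26 with an r of 0.98, Nos2 with 0.96 and Ywhaq with 0.96. For Eng, Dab2 had an r of 0.98 and Tspan7 one of 0.97. For Id1 they were Nudt14 with 0.96, Pik3r3 with 0.96 and Kdr, the gene of VEGF receptor 2, with 0.95. For Id3 they were Cltb with 0.97, Nhsl2 with 0.97 and the transcription factor gene Mef2c with 0.96. For Smad6 they were Stom with 0.93, Ddrgk1 with 0.93 and the laminin gene Lamb2 with 0.92. The values of the receptors were lower: Qsox1 with 0.92, Stard9 with 0.91 and Sppl2a with 0.90 for Tgfbr2, and Apold1 with 0.91, Vgll4 with 0.91 and the VE-PTP gene Ptprb with 0.89 for Bmpr2. For Acvrl1 they were Cwc25 with 0.92, Ubap1 with 0.91 and Hist1h2bc with 0.90, and for Smad7 Wdr37 with 0.87, Arl6ip5 with 0.82 and Atg12 with 0.81.

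The other genes of the pathway were taken from a list of 65 by role. Of these, 8 had no row under their listed symbol in the expression matrices, 17 were under 5 CPM in both libraries and 40 could be compared. Of these 40, 2 were called higher in the cGAMP library, next to 4.53% of all genes tested, and 7 lower, next to 7.40%. Of the 27 that reached 20 CPM, 2 were higher and 2 lower, next to 4.45% and 6.14% of all genes at that level. Over the 40 genes the median log2 ratio was -0.19, next to -0.08 over all genes tested, of which 59.6% had a log2 ratio below 0. Among 7 ligand genes, Bmp4 went from 15.4 to 26.9 CPM and was called higher, whereas Bmp6, Gdf11 and Tgfb2 were called lower. Their levels went from 5.84 to 2.35 CPM for Bmp6, from 6.80 to 2.94 CPM for Gdf11 and from 15.1 to 6.66 CPM for Tgfb2, the gene of a TGF-beta ligand. The ligand genes with the most UMIs were Inhbb, an inhibin and activin subunit, at 215 and 211 CPM, and Tgfb1 at 199 and 252 CPM, neither of which was called.

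The other receptor genes were all under 1.5-fold, and all 5 that could be compared had log2 ratios below 0, as did 59.6% of all genes tested, although that of Acvr1b, at -0.02, is smaller than the 0.07 that median-of-ratios scaling adds. Tgfbr3, which encodes the co-receptor betaglycan and had the most UMIs of them, was at 44.0 and 34.2 CPM. Of 5 genes for latency and activation of TGF-beta, Ltbp4 went from 92.2 to 52.6 CPM and Ltbp3 from 6.27 to 2.97 CPM, both called lower, and both encode proteins that store latent TGF-beta in the matrix. Thbs1, the gene of thrombospondin that activates latent TGF-beta, was at 180 and 237 CPM. All 5 signalling SMAD genes had log2 ratios below 0, with the same background and the same limit for Smad2 at -0.0071. Smad1, which carries BMP signals, was called lower with 264 CPM in the PBS library against 171 CPM in the cGAMP library, a log2 ratio of -0.63 (-0.66 to -0.59). This call is lost with median-of-ratios scaling. Under that scaling 6 of the 40 pathway genes were called lower and 3 higher, next to 5.66% and 5.77% of all genes tested. Smad5, its close relative, was at 55.1 and 37.9 CPM with a log2 ratio of -0.54.

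Of 10 antagonist or brake genes, Mgp, a matrix protein that binds BMPs, was called higher with 31.0 and 52.7 CPM. Those with the most UMIs were Fstl1 at 120.3 and 80.5 CPM, close to the threshold with a log2 ratio of -0.58, and Pmepa1 at 103 and 106 CPM. Among 8 further target genes, Tmem100, which the ALK1 pathway induces in ECs, was called lower with 8.87 and 2.59 CPM and had the lowest log2 ratio of the 40 genes compared, -1.78 (-2.03 to -1.53). The target gene Cyr61 had the most UMIs with 330 and 369 CPM, and Id2, of the same family as Id1 and Id3, was at 33.9 and 39.9 CPM, a log2 ratio of 0.24. Target genes of the same pathway thus lay on both sides, with 5 of these 8 above 0 and 3 below.

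**Figure D4:**
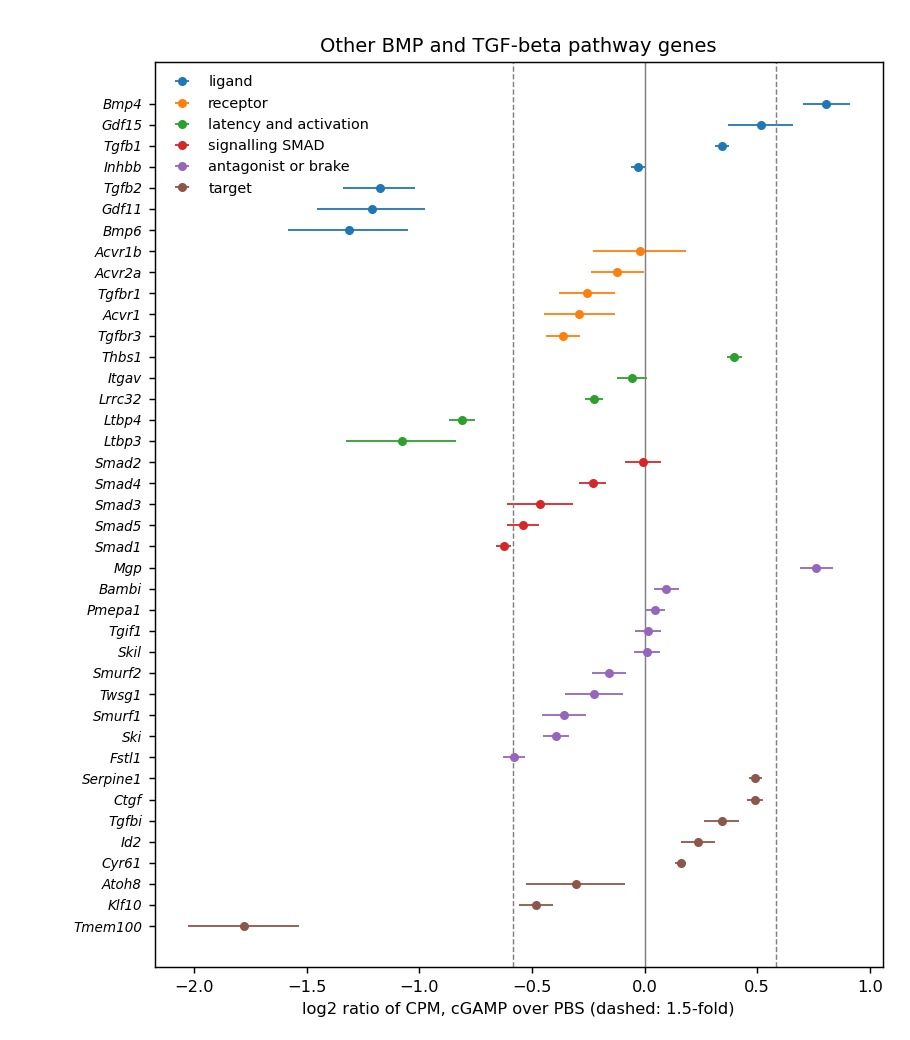
Log2 ratio of CPM, cGAMP over PBS, of the 40 other pathway genes that could be compared, coloured by role, with exact conditional binomial intervals and dashed lines at 1.5-fold. Bmp4 and Mgp lie right of the upper line, 7 genes lie left of the lower line with Tmem100 lowest at -1.78, and all receptor and signalling SMAD genes lie below 0, Acvr1b and Smad2 by less than the 0.07 that median-of-ratios scaling adds.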

How the data were processed

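The members and gene lists were chosen with earlier results of these data known. ECs of 2 libraries were processed with Cell Ranger 3.0.0 and mm10, and with Seurat 3.1.1, per the labels and methods. The authors removed cells with few genes or a high mitochondrial share, genes found in few cells, and clusters that lacked Pecam1. Each file the authors deposited holds natural log values, the log of 1 plus UMIs scaled to a fixed total per cell. UMI counts were recovered from the step that 1 UMI makes in a cell, and 100% of values came within 0.01 of a whole number, so the levels rest on 92081146 UMIs for PBS and 63366746 for cGAMP. Only the log2 ratio and its interval were tested on simulated data, drawn as independent Poisson counts of whole libraries. The recovery of UMIs, the thinning and the clustering were not tested in this way.

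UMIs were summed over cells as CPM, with exact Poisson intervals, exact conditional binomial intervals for ratios and Clopper-Pearson intervals for shares, all at 95% and for counting error only. Calls needed 1.5-fold and 5 CPM in one library or both. Intervals and shares used numpy 2.4.6, scipy 1.17.1 and pandas 2.3.3 in python 3.11.15, and figures matplotlib 3.10.9. For shares, each cell was thinned to 5000 UMIs, which dropped 70 ECs for PBS and 13 for cGAMP.

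Clustering used Seurat 5.3.0 under R 4.3.3 and the main steps of the methods, with 30 principal components and a resolution of 0.5. Unlike in the methods, the number of UMIs and the mitochondrial share of a cell were not regressed out. The libraries differed in both, with a median mitochondrial share of 4.49% for PBS and 2.87% for cGAMP. The effect on the clusters was not tested. Of 2500 variable genes, 2203 differed less than 2-fold between the libraries, and 27 of these that were members or listed pathway genes were left out, leaving 2176. Raised markers were averaged over the libraries with 5 CPM added, and the thresholds of naming were set once the clusters were known. Doublets were not sought or removed, and rebuilt names need not be those of the study. An alternative clustering forms its own classes, which are not the same cells as in the main one. Genes named besides the 9 members were the pathway genes called at 1.5-fold, the most abundant gene of each role, the 3 genes most like each member and cell type markers. One of the genes most like a member is not reported here. Smad5, Id2, Acvr1b, Smad2 and the leading genes of clusters were named after their values were seen. Alternatives weighted every cell equally (the mean of per-cell CPM), scaled by the median of ratios, held cluster proportions equal, kept cells with at most 5% mitochondrial UMIs or without markers of other cell types, thinned cells, or changed the CPM filter or the clustering.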

Additional observations from a re-analysis of the deposited data

Results flagged for a closer look

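Eng and Smad6 had cGAMP over PBS log2 ratios of opposite sign in different EC classes, each with an interval on 1 side of 0. For Eng the log2 ratio was 0.19 in tip-like ECs, -0.25 in stalk-like ECs and -0.07 in arterial ECs. For Smad6 it was 0.73 in tip-like ECs and 0.44 in arterial ECs and -0.58 in stalk-like ECs. The tip-like value rests on 51 and 45 UMIs, and the share of thinned tip-like cells with a UMI lay at or below that of Lyz2. The stalk-like share in the cGAMP library, 3.33% of 330 cells, also lay below that of Lyz2, 5.65%. With 1 library per condition the difference between classes was not tested. Clustered without integration, the tip-like value of Eng was -0.09, and that of Smad6 was 0.01 in tip-like and 0.02 in stalk-like ECs, so that neither contrast stood in that clustering. These classes were smaller sets of cells there, with 603 and 186 tip-like and 246 and 154 stalk-like ECs.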

How the results depend on the processing

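Of 272 values recomputed under alternatives, 178 moved by less than their counting interval, or for counts by less than 1.5 times, 94 moved by more, and 0 called values changed sign. The count of members called higher, 1 for Id1, was 0 with the mean of per-cell CPM, in cells without markers of other cell types (1735 PBS-treated and 640 cGAMP-treated ECs) and in cells thinned to 5000 UMIs. The median log2 ratio of the members, -0.06, was -0.11 with per-cell CPM, 0.0076 with median-of-ratios scaling and -0.15 in thinned cells, next to medians over all genes of -0.07, -0.0043 and -0.07. Among the other pathway genes the count called higher, 2, was 4 of 41 with per-cell CPM, next to 4.39% of all genes. It was 5 of 56 without a filter on low values, for which that share was not computed. The count called lower, 7, was 2 with a filter of 20 CPM, which kept 27 of the 40 genes, next to 6.14% of all genes that passed it. The count of members lower in proliferative ECs, 1 for Bmp2, was 2 at a resolution of 0.3 and without integration, where Tgfbr2 joined. The share over all genes was not computed for those 2 clusterings. Thresholds chosen after seeing the data gave 2 members higher and 1 lower, and 8 of 40 pathway genes higher and 14 lower, at 1.25-fold. Of all genes tested, 12.3% were higher and 21.7% lower at that threshold. At 2-fold 0 members were higher and 0 lower, and 0 pathway genes were higher and 5 lower. The shares over all genes tested were then 1.82% higher and 1.69% lower. Apart from the filter and the thresholds, the cause was not tested. Over all ECs, the log2 ratios of Eng (-0.07 to 0.16), Acvrl1 (-0.15 to 0.01) and Bmp2 (-0.26 to 0.11) changed sign under some of 6 alternatives, and those of the other 6 members kept theirs. No paired analysis was possible because each condition is 1 library and the labels give no replicate numbers. Depth limits Smad6 and the small clusters, where few UMIs stand behind a value.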
